A study of Mus musculus with 4 samples.

Results

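The genes of the transforming growth factor-β (TGF-β) and bone morphogenetic protein (BMP) pathway were examined in RNA co-immunoprecipitated with CPEB2, a cytoplasmic polyadenylation element binding protein that binds U-rich elements in 3'-untranslated regions and controls translation in neurons. They were chosen by symbol from the annotation of the array: the Bmp, Bmpr, Smad, Tgfb1 to Tgfb3, Tgfbr, Acvr, Gdf, Inhb and Id1 to Id4 genes together with Nog and Chrd, which gave 56 of the 24185 gene symbols on the array and 83 of its 33256 gene probes. In RNA immunoprecipitation (RIP), an antibody pulls down a protein together with its bound RNA, and non-specific IgG gives the background. Male C57BL/6 mice aged 8 weeks gave the lysate of cortex and hippocampus, which was divided between beads carrying CPEB2 IgG and beads carrying control IgG, and the RNA of 2 such experiments was read on 4 one-color arrays, 2 for each antibody. The labels give no transgene, deletion or treatment of the mice, and neither the labels nor the methods state how many animals went into a lysate. A text field of both CPEB2 IgG samples names CPEB3 IgG, while their titles and protocol name CPEB2, and the samples are treated here as CPEB2 IgG.

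Ligands of this family are secreted dimers that bring together type I and type II receptors, both of which are serine/threonine kinases, and the type II receptor activates the type I receptor. The type I receptor then phosphorylates receptor Smads, which enter the nucleus with the common Smad4 and change transcription. Inhibitory Smads and secreted antagonists such as noggin and chordin limit the signal, and the Id genes are well-known targets of its BMP branch. In the brain the pathway is known for its part in neural patterning, glial differentiation, neurogenesis in the adult hippocampus and synapse formation.

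All values are processed signals of 60-base probes in arbitrary intensity units. For comparison, each array was set to its own 75th percentile on the log2 scale, so a log2 fold change is the recovery of an mRNA with CPEB2 IgG over control IgG relative to the other mRNAs on the array. A gene was tested where at least 1 of its probes was above background on at least 2 of the 4 arrays, and its brightest such probe stood for it. Brightness was the mean log2 signal over all 4 arrays, those with CPEB2 IgG included. The choice can thus favor the probe with the larger recovery. limma was fitted to 19696 genes with the experiment as a block. Its p-values were adjusted with the Benjamini-Hochberg method over all of these genes, and an adjusted p under 0.05 was called. Where an array is left out below, the fit had no block and was unpaired. A call lost there cannot be credited to the missing array alone. Of the 56 pathway genes 53 were tested, 52 of them above background on all 4 arrays, and none had passed through the arrays of only 1 antibody. Bmp15, Gdf2 and Gdf6 were not above background on any array and have no value. The lysate is bulk tissue shared by both antibodies, and these values do not tell which cells an mRNA came from. For a single gene, exact permutation of 2 unpaired arrays against 2 allows no p below 0.333, and permutation within pairs allows none smaller. The calls therefore rest on the variance that limma shares between genes. The p-values measure only the spread between these 4 arrays.

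Between 68.4% and 74.1% of the spots of an array were above background and none was saturated. All arrays lay on one slide, and since each antibody had its own positions there, position and antibody cannot be told apart. The 7 neuronal markers examined were all measured, with a summed signal of 123545 to 126167 with CPEB2 IgG and 133831 to 136557 with control IgG. The summed signal of 4 choroid plexus markers, led by Ttr, was 7434 and 12051 on the arrays of experiment 1 and 522 and 504 on those of experiment 2, so it differed between experiments more than between antibodies.

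These pathway genes split by role. Receptors, Smads and Id genes were recovered with CPEB2 IgG, with 19 of 24 higher, none lower and a median log2 fold change of 1.61, whereas the ligands and secreted antagonists, with 4 of 26 higher and 4 lower, had a median of 0.04. Over all pathway genes tested 24 of 53 were higher (45.3%) and 4 lower (7.55%), where 21.2% of all genes tested were higher and 20.4% lower. As a median, the log2 fold change was 0.76 for the pathway genes and -0.11 over all genes tested. After scaling, 34 pathway genes had both CPEB2 IgG values above both control IgG values and 12 had both below (33.7% and 38.2% of all genes tested, respectively), and in 7 the groups overlapped. Most genes tested thus stood apart in either direction. Groups that lie apart are therefore usual here, also where they are given for a gene below. No test of the difference between role groups was made, and these counts describe the groups. The groups also differed in signal. Among ligands and antagonists only Inhbb and Gdf1 read above 1000 on a CPEB2 IgG array, whereas most receptors, Smads and Id genes did. The part of signal level in the split was not tested. A second list of pathway genes, given below, did not split the same way throughout. Its ligands had 1 of 4 higher and its Smad regulators 10 of 17. But its receptors and co-receptors had 1 of 6 higher (median -0.14). Its extracellular inhibitors had 4 of 10 higher (median 0.48), and its latency and activation genes 5 of 8 (median 1.26).

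**Figure D1:**
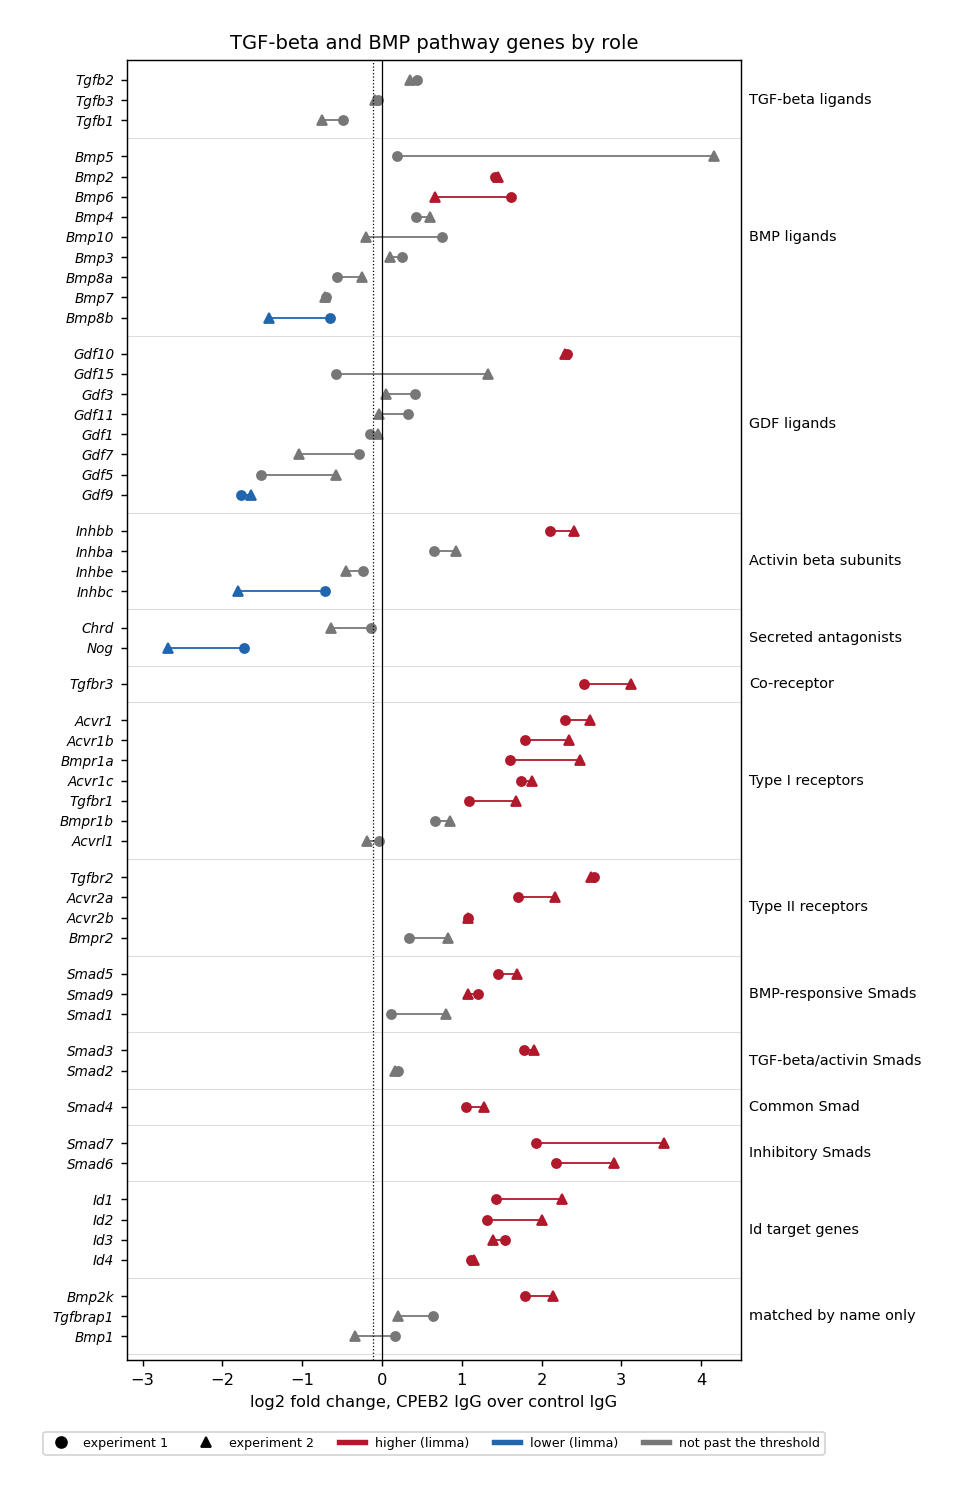
Log2 fold change of CPEB2 IgG over control IgG for the 53 pathway genes tested, grouped by role, with a circle for experiment 1, a triangle for experiment 2 and a line between them. Red marks genes called higher by limma, blue genes called lower and gray the rest, the solid line is 0 and the dotted line the median of all genes tested (-0.11); receptors, Smads and Id genes lie almost entirely to the right, and ligands and antagonists on both sides.

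The study's methods ask for a raw signal above 1000 and for more than 1.5-fold recovery over control IgG, and these thresholds were passed by 19 of the 56 genes, against 13.9% of all genes, here by any probe of a gene, with the mean fold change and at least 1 CPEB2 IgG array above the signal. These were Acvr1, Acvr1b, Acvr1c, Acvr2a, Acvr2b, Bmpr1a, Tgfbr1, Tgfbr2 and Tgfbr3 among the receptors, Smad3, Smad4, Smad5 and Smad7, all 4 Id genes, the activin subunit gene Inhbb and the kinase gene Bmp2k. Besides Inhbb, only Gdf1 among the ligands and antagonists reached that signal, so the threshold on signal alone kept out most of them. The methods further asked for an element in the 3'-untranslated region, which was not examined here for whole transcripts.

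The 3 TGF-β ligands, which signal through Tgfbr2 and Tgfbr1, did not pass the test. Their log2 fold changes were 0.40 for Tgfb2, -0.07 for Tgfb3 and -0.63 for Tgfb1 (limma SE 0.23, 0.23 and 0.24), and Tgfb2 and Tgfb3 changed sign, to -0.20 and 0.089, when the probes of an array were centred by their GC content (GC centring). The value of Tgfb2 depended on the probe. Its brightest probe by mean log2 signal read 497 and 496 with CPEB2 IgG against 388 and 395 with control IgG. Another probe of the gene read 726 and 898 with CPEB2 IgG against 255 and 201 with control IgG, a log2 fold change of 1.89 ± 0.42 (SD, n = 2 experiments). On neither probe did the antibodies overlap, but the gap was wide on one probe and narrow on the other. With the mean of its probes Tgfb2 was called higher, at 1.14 (adjusted p = 0.0209). It was also called with normexp background correction, where the other probe was the brightest, at 1.63 (adjusted p = 0.000219). The probes start 1799 bases apart on the minus strand of chromosome 1 (mm9), and their first 30 bases are shown because the call on this ligand turns on which of them is read.
Tgfb2, brightest probe, chr1:188449363-188449392: attggaaatacgcccaagatcgaacagctt
Tgfb2, other probe, chr1:188447564-188447593: tcatccattatttccctgatttcattgaaa

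Of the 9 BMP ligands tested, 2 were higher and 1 was lower (22.2% and 11.1%, against 21.2% and 20.4% of all genes tested). Bmp2, a ligand of Bmpr1a and Bmpr1b, read 626 and 549 with CPEB2 IgG against 249 and 204 with control IgG, a log2 fold change of 1.43 (SE 0.23, adjusted p = 0.0106). Bmp6, of the same ligand family and known for iron regulation, read 159.9 and 135 against 55.1 and 86.4, a log2 fold change of 1.14 (SE 0.32, adjusted p = 0.0447). Neither gene's groups overlapped, and the 2 experiments gave 1.41 and 1.45 for Bmp2 and 1.62 and 0.66 for Bmp6. With GC centring Bmp2 was at 0.83 (adjusted p = 0.0493), and with normexp Bmp6 was at 0.59 (adjusted p = 0.0312). The call on Bmp6 was lost with the percentile over detected probes (adjusted p = 0.0577), without either CPEB2 IgG array (adjusted p = 0.131 and 0.104), without control IgG replicate 1 (adjusted p = 0.171) and with GC centring (adjusted p = 0.0584). Of 4 markers of meninges and fibroblasts, which also make BMPs, 2 were higher (Col1a1 and Lum), and their summed signal was 1939 to 2627 with CPEB2 IgG and 1097 to 1597 with control IgG. Their part in the values of the BMP ligands was not tested. Bmp8b, a ligand with a close paralog in Bmp8a, was lower, at 58.1 and 37.3 against 96.9 and 101 (log2 fold change -1.04, SE 0.29, adjusted p = 0.0447). Its call was lost without any one array but CPEB2 IgG replicate 1 (adjusted p = 0.0758 to 0.129), and with median centring, normexp background correction or GC centring. Because these paralogs are much alike, the probe of Bmp8b may read both, and the probe of Bmp8a gave -0.41 with an adjusted p of 0.23.

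Bmp5 had the widest gap between experiments of all pathway genes. It read 29.2 and 551 with CPEB2 IgG against 27.1 and 31.3 with control IgG, so a single array carried the difference, and the log2 fold change of 2.18 had a limma SE of 0.95 and an adjusted p of 0.131. The groups overlapped after scaling. Without CPEB2 IgG replicate 2 the value was 0.06 (adjusted p = 0.872), while with median centring or an intensity trend in limma it passed the threshold (adjusted p = 0.00626 and 0.0212). Bmp3, Bmp4, Bmp7, Bmp8a and Bmp10 lay between -0.71 and 0.51 and did not pass the test. Bmp7, at -0.71 in experiment 1 and -0.72 in experiment 2, came closest, with an adjusted p of 0.0645, and was called lower under 4 alternatives (adjusted p = 0.0369 to 0.0473).

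Among the 8 growth differentiation factor (GDF) genes tested, Gdf10 was higher and Gdf9 was lower. This is 12.5% each way, against 21.2% and 20.4% of all genes tested. Gdf10, which encodes BMP-3b and is expressed in brain, read 129 and 148 with CPEB2 IgG against 27.3 and 30.8 with control IgG, a log2 fold change of 2.30 (SE 0.23, adjusted p = 0.00542). Gdf9, best known as an oocyte factor, read 47.9 and 50.9 against 173 and 161, a log2 fold change of -1.70 (SE 0.23, adjusted p = 0.00759). Both genes had dim probes, their groups were far apart, and the 2 experiments gave nearly the same fold change, 2.32 and 2.29 for Gdf10 and -1.77 and -1.64 for Gdf9. With normexp background correction the values were 1.06 and -0.97, respectively, and both calls held. The other 6 lay between -1.05 and 0.38. Gdf15 was among them with opposite signs in the experiments, at -0.57 and 1.33, and Gdf5 came closest to a call at -1.05 (adjusted p = 0.0542). It was called lower under 5 alternatives (adjusted p = 0.00951 to 0.0399) and without control IgG replicate 2 (-1.61, adjusted p = 0.0209). Gdf1 shares a bicistronic transcript with the ceramide synthase gene Cers1, and its probe, at 7007 and 6829 against 8207 and 7193, may therefore read both.

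The activin β subunits form activins, which signal through Acvr1b, Acvr2a and Acvr2b. Inhbb, the βB subunit, was the strongest ligand gene past the test apart from Gdf10, at 1514 and 1910.0 with CPEB2 IgG against 372 and 366 with control IgG (log2 fold change 2.26, SE 0.24, adjusted p = 0.00562). Inhba, the βA subunit known as an activity-regulated gene of neurons, read 844 and 601 against 568 and 322, and its log2 fold change of 0.79 (SE 0.24) missed the threshold with an adjusted p of 0.0543, although 6 alternatives brought it past (adjusted p = 0.00912 to 0.0451). Inhbe was at -0.34. Inhbc, a subunit made mainly by liver, was called lower at -1.26 (SE 0.34, adjusted p = 0.0417), but it read 20.6 and 12.8 against 35.7 and 45.5 and was not above background on CPEB2 IgG replicate 2. Without that array its adjusted p was 0.094, and without control IgG replicate 2 it was 0.1115; with normexp the value was -0.36 (adjusted p = 0.139), and GC centring or an intensity trend ended the call as well.

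The gene of noggin, which binds BMPs outside the cell and keeps them from their receptors, had the lowest value of the pathway. Nog read 145 and 52.6 with CPEB2 IgG against 509.7 and 343 with control IgG, a log2 fold change of -2.21 (SE 0.32, adjusted p = 0.00844). Both CPEB2 IgG arrays were below both control IgG arrays, at -1.73 and -2.68 on the log2 scale in the 2 experiments. Without CPEB2 IgG replicate 2 the value was -1.48 and the call was lost by a narrow margin (adjusted p = 0.0514), as it was without the filter on dim probes (adjusted p = 0.054). Chrd, the gene of chordin, read 141 and 129 against 164 and 203 and did not pass the test (log2 fold change -0.39, SE 0.26, adjusted p = 0.284).

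The median over the receptors was 1.87 on the log2 scale, and 9 of 12 were higher (21.2% of all genes tested). Tgfbr3, betaglycan, a co-receptor that presents TGF-β2 and inhibin, had the largest log2 fold change of all pathway genes tested. It read 1584 and 2093 with CPEB2 IgG against 291 and 244 with control IgG, and the log2 fold change was 2.83 (SE 0.27, adjusted p = 0.00542), a 7.09-fold difference. Both experiments gave a large value, 2.53 and 3.12. The first 30 bases of the probe are given to show where on this mRNA the strongest value was read.
Tgfbr3, chr5:107535848-107535877, minus strand: gggggttcgttcattaaactgacagatatt

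Of the 7 type I receptors, 5 were higher (71.4%, against 21.2% of all genes tested). Acvr1 (ALK2), a BMP type I receptor, read 8422 and 8553 with CPEB2 IgG against 1824 and 1422 with control IgG (log2 fold change 2.45, SE 0.24, adjusted p = 0.00542). Acvr1b (ALK4), the main activin type I receptor, read 9610.4 and 14090.3 against 2946 and 2815 (2.07, SE 0.26, adjusted p = 0.00687). On both genes every CPEB2 IgG array was more than 3 times as bright as every control IgG array. Bmpr1a (ALK3), a receptor for BMP2 and BMP4, read 2666 and 4607 against 927 and 836 (2.05, SE 0.31, adjusted p = 0.00911). Acvr1c (ALK7), a receptor for nodal and some activins, read 2406 and 2392 against 761 and 661 (1.81, SE 0.23, adjusted p = 0.0069). Groups stood apart on both, and the brighter CPEB2 IgG array of Bmpr1a was that of experiment 2. Tgfbr1 (ALK5), the TGF-β type I receptor, read 975 and 1213 against 486 and 386 (1.38, SE 0.27, adjusted p = 0.017), and its adjusted p was 0.0507 without control IgG replicate 2.

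The remaining type I receptors were not called. Bmpr1b (ALK6), which like Bmpr1a binds BMPs and GDFs, read 508 and 539 with CPEB2 IgG against 339 and 303 with control IgG, with no overlap, and its log2 fold change of 0.76 (SE 0.23) had an adjusted p of 0.0566. Several alternatives of processing brought it past the threshold, among them the mean of its probes (adjusted p = 0.0359) and the fit without the block (adjusted p = 0.0332). Acvrl1 (ALK1), known from endothelium, read 307 and 283 against 334 and 328 (-0.11, SE 0.23, adjusted p = 0.73). It was the only receptor with a negative value, and its sign turned with median centring, where it was 0.12, and with GC centring, where it was 0.26. Of 4 endothelial markers tested, Cdh5 alone was higher, none was lower, and the summed signal of the 4 was 2073 and 2087 with CPEB2 IgG against 1969 and 2494 with control IgG.

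Of the 4 type II receptors, 3 were higher (75%, against 21.2% of all genes tested). Tgfbr2, which binds TGF-β and is needed for its signal, read 1598 and 1348 with CPEB2 IgG against 268 and 223 with control IgG (log2 fold change 2.64, SE 0.23, adjusted p = 0.00542). Acvr2a, an activin receptor that also serves BMPs, read 875 and 1513 against 284 and 341 (1.94, SE 0.25, adjusted p = 0.00713). Acvr2b, its paralog, read 2152 and 2032 against 1079 and 976 (1.08, SE 0.23, adjusted p = 0.0217). The groups of all 3 were apart, and the 2 experiments differed by the least for Acvr2b, at 1.08 in both, although its call was lost without control IgG replicate 1 (adjusted p = 0.065) or replicate 2 (adjusted p = 0.079). Bmpr2, the BMP type II receptor, read 832 and 915 against 695 and 526, and its 0.58 (SE 0.25) did not pass the test (adjusted p = 0.132).

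Among probes above background on at least 2 arrays, those of Tgfbr2 differed more than those of any other pathway gene. The brightest gave 2.64 ± 0.03 and the other 0.24 ± 0.21 (log2 fold change, SD, n = 2 experiments). The dim probe read 55.6 and 37.8 with CPEB2 IgG against 45 and 35.9 with control IgG, above background on all 4 arrays. Its antibodies overlapped in raw signal, while those of the bright probe did not. With the mean of both probes Tgfbr2 was at 1.44 and still called (adjusted p = 0.0115). The probes start 2341 bases apart on the minus strand of chromosome 9 (mm9), and their first 30 bases show which stretch each of these unlike values came from.
Tgfbr2, brightest probe, chr9:115997185-115997214: tctagcggggaatttacagaatgctggtcc
Tgfbr2, other probe, chr9:115999526-115999555: gggaggagctgctcccaggagaagattcca

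**Figure D2:**
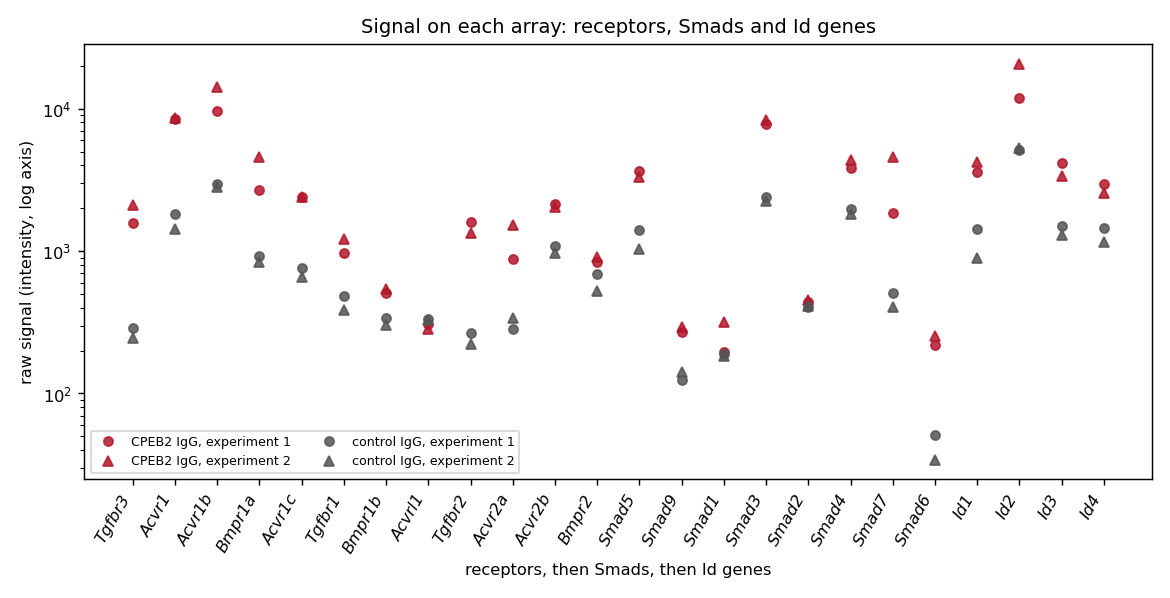
Raw processed signal (intensity, log axis) of the 24 receptor, Smad and Id genes on each of the 4 arrays, with red for CPEB2 IgG, gray for control IgG, circles for experiment 1 and triangles for experiment 2. Signals of different genes come from different probes and are not to be compared; within a gene, red lies above gray for all but Acvrl1, and the groups nearly touch for Smad1 and Smad2.

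Smads carried the pattern on from the receptors, with 6 of 8 higher and a median log2 fold change of 1.37. Over all genes tested 21.2% were higher, with a median of -0.11. Both inhibitory Smads were among them and had the largest values. Smad7, which blocks type I receptors of both branches, read 1838 and 4591 with CPEB2 IgG against 509 and 403 with control IgG (log2 fold change 2.73, SE 0.44, adjusted p = 0.0105). Smad6, which acts mostly on the BMP branch, read 219 and 255 against 51.1 and 34.3 (2.55, SE 0.28, adjusted p = 0.00588). With normexp Smad6 was at 1.57 and still called. Neither overlapped, and Smad7 differed between the experiments by more than any other called gene, at 1.94 and 3.53.

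Among the receptor Smads of the BMP branch, Smad5 and Smad9 were higher and Smad1 was not called. Smad5 read 3638 and 3291 with CPEB2 IgG against 1405 and 1038 with control IgG (log2 fold change 1.57, SE 0.24, adjusted p = 0.00913). Smad9, also called Smad8, read 271 and 295 against 124 and 141 (1.15, SE 0.23, adjusted p = 0.019), and without control IgG replicate 1 its adjusted p was 0.0854. Smad1 read 194 and 315 against 190.0 and 183 (0.46, SE 0.28, adjusted p = 0.246), and with GC centring its sign turned, at -0.14. Its CPEB2 IgG array of experiment 1 lay next to the controls, and its other probe above background gave -0.26, so that Smad1 was the only pathway gene whose probes had opposite signs.

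Smad3 and Smad2, the receptor Smads of the TGF-β and activin branch, differed from each other. Smad3 read 7813 and 8304 with CPEB2 IgG against 2412 and 2256 with control IgG (log2 fold change 1.84, SE 0.23, adjusted p = 0.00674). Smad2 read 438 and 456 against 405 and 414 (0.18, SE 0.23, adjusted p = 0.571), and the 95% interval of its log2 fold change ran from -0.42 to 0.78; with GC centring its value was -0.42. Smad4, the partner of all receptor Smads, read 3854 and 4332 against 1972 and 1814 (1.16, SE 0.24, adjusted p = 0.0191), and without control IgG replicate 1 or 2 its adjusted p was 0.055 or 0.062. The groups of Smad4 were wide apart and those of Smad2 close together, though in neither did they overlap. For Smad3 the probes again differed, with 1.84 ± 0.09 on the bright probe and 0.55 ± 0.18 on a dim one that read 76.4 and 82.3 against 60.6 and 52.2, and their mean gave 1.19 (adjusted p = 0.0181). They start 2918 bases apart on the minus strand of chromosome 9 (mm9), and their first 30 bases are given for the same reason as those of Tgfbr2.
Smad3, brightest probe, chr9:63494604-63494633: tataaacgcccttctaataaacttttcacc
Smad3, other probe, chr9:63497522-63497551: cgctgaaggtcagcgtataggtgatgtaca

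**Figure D3:**
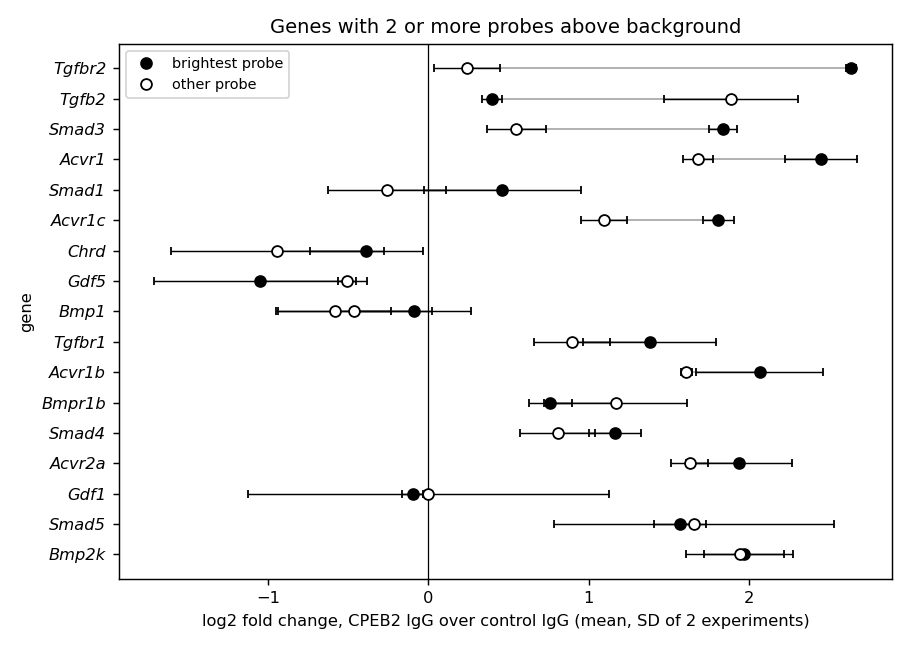
Mean log2 fold change with the SD of 2 experiments (error bars) for each probe above background of the 17 pathway genes with 2 or more such probes, with filled circles for the brightest probe, which stands for the gene, and open circles for the others. Tgfbr2, Tgfb2 and Smad3 span more than 1 on the log2 scale, and the probes of the other 14 genes lie closer together, on opposite sides of 0 for Smad1 only.

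All 4 Id genes were higher, where 21.2% of all genes tested were. They encode inhibitors of basic helix-loop-helix transcription factors and are known for holding neural precursors and glia from differentiating. Id1 read 3620.2 and 4216 with CPEB2 IgG against 1422 and 898 with control IgG (log2 fold change 1.84, SE 0.30, adjusted p = 0.0109). Id2 read 11938 and 20670.1 against 5096 and 5255 (1.66, SE 0.28, adjusted p = 0.012). In both the antibodies were apart, and experiment 2 had the larger fold change. Id3 read 4135 and 3355 against 1499 and 1297 (1.47, SE 0.23, adjusted p = 0.0102). Id4, the family member best known from neural tissue, read 2982 and 2555 against 1458 and 1166 (1.14, SE 0.23, adjusted p = 0.0191). These were apart as well and had nearly the same fold change in both experiments, but the call on Id4 was lost without control IgG replicate 2 (adjusted p = 0.09). Of the astrocyte markers 2 of 5 were higher and 2 lower, and their summed signal was 35603 to 36824 with CPEB2 IgG and 16475 to 21285 with control IgG. Of these, Slc1a3 and Gjb6 were higher (log2 fold change 3.44 and 1.42), and Aldh1l1 and Gfap lower (-3.77 and -0.90). The part of this in the Id values was not tested. The probe of Id1 had a GC content of 28.3%, low for these genes, and begins as follows.
Id1, chr2:152563083-152563112, plus strand: attgttttacaatagttctatgggggtgag

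Bmp2k, Tgfbrap1 and Bmp1 matched by their names and are no ligands, receptors or Smads. Bmp2k, a kinase induced by BMP2, read 2060.5 and 2069 with CPEB2 IgG against 629 and 475 with control IgG and was higher (log2 fold change 1.97, SE 0.24, adjusted p = 0.00657). Its 2 probes above background gave 1.94 and 1.97. Tgfbrap1, a receptor-associated protein of the endosomal system, was at 0.42 (adjusted p = 0.239). Bmp1, a secreted protease that processes procollagen and chordin, was at -0.09 (adjusted p = 0.808) with opposite signs in the experiments.

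Other genes of the pathway, 62 from a list that holds none of the 56, were set beside these. This list too was chosen with earlier results of these data known, so its counts are a description and no independent check. Of the 58 that were tested, 28 were higher and 2 lower, where 21.2% and 20.4% of all genes were, with a median log2 fold change of 0.74. Regulators of Smads had 10 of 17 higher and none lower, among them Smurf2, an E3 ligase for Smads and receptors, Ski and Skil, which repress Smad transcription, and Trim33, which acts on Smad4. Smurf2 read 2154 and 2205 with CPEB2 IgG against 505 and 365 with control IgG (log2 fold change 2.40, SE 0.25, adjusted p = 0.00562). Trim33 read 4841 and 6580.3 against 1024 and 907 (2.60, SE 0.26, adjusted p = 0.00543). Smurf1, the paralog of Smurf2, was at -0.65 and was not called (adjusted p = 0.105).

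The genes that keep TGF-β latent or release it had 5 of 8 higher, where 21.2% of all genes tested were. Thbs1, an activator of latent TGF-β, read 236 and 283 with CPEB2 IgG against 10.9 and 20.1 with control IgG. These control signals were dim: on control IgG replicate 2 a Tgfbrap1 probe at 16.3 was not above background. Thbs1 may have passed the filter through its CPEB2 IgG arrays alone. Its place among the 5 and the size of its difference are therefore uncertain. Ltbp4, a latent TGF-β binding protein, read 21103 and 14989 against 1771 and 1878 (log2 fold change 3.34, SE 0.27, adjusted p = 0.00542). Extracellular inhibitors had 4 of 10 higher, Twsg1, Fstl1, Fst and Bmper at 2.76, 2.28, 1.82 and 1.67, and none lower. Nog thus had the opposite sign to these 4. Transcriptional targets had 4 of 5 higher, with Hes1 at 3841 and 6139 against 231 and 273 (4.33, SE 0.25, adjusted p = 0.00542), and Junb lower at -1.66 (SE 0.31, adjusted p = 0.0156). Of the other ligands 1 of 4 was higher (Lefty1), of the other receptors and co-receptors 1 of 6 (Neo1), and of the cofactors and non-Smad kinases 3 of 8 were higher and 1 lower. The latter was Tab1, at -2.16 (SE 0.25, adjusted p = 0.00601), whereas its partner gene Tab2 was higher at 1.54 (SE 0.26, adjusted p = 0.0119).

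CPEB proteins bind the cytoplasmic polyadenylation element, whose letters on a DNA probe are TTTTAT or TTTTAAT. On the strand that the probes carry, 5 of the 83 pathway probes (6.02%) held one of these, all TTTTAT, compared with 5.21% of the 33256 gene probes. A probe covers 60 bases only, so these counts say nothing about the rest of a transcript. The windows of 30 bases around the letters, which are in capitals, are shown because they are the only places in these probes that hold them.
Gdf10, higher at 2.30: ctacacgtgcTTTTATacatgcagtatgca
Tgfbr1, second probe at 0.90: ctTTTTATctcatatgtgcagatcttgcaa
Bmp4, not called at 0.51: tccctatagctggacTTTTATcttaaaaaa
Gdf1, not called at -0.10: tgtttgttcatgTTTTATtggtgacaaaaa
Inhbe, not called at -0.34: gggtgacatacaTTTTATattttcttaata
One of the 5 probes stood for a gene that was higher, 3 stood for genes that were not called, and the fifth was the dimmer probe of Tgfbr1, whose brightest probe held neither form. None of the 24 probes that stood for receptors, Smads and Id genes held these letters.

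The GC content of a probe moved with its value. Across the 53 pathway genes Pearson's r of probe GC content and log2 fold change was -0.56 and Spearman's rho -0.60, and across the 19696 genes tested they were -0.36 and -0.37. These describe probes read on the same 4 arrays, and genes are not independent replicates. Over all genes tested, the median was 1.05 for probes of 15% to 31.7% GC, 0.41 for 33.3% to 36.7% and -0.60 for 53.3% to 56.7%. Median GC was 35% for the Smads, 38.3% for the receptors and 43.3% for the ligands and antagonists, against 41.7% for all genes. With each array centred within bins of probe GC content, the medians fell to 1.38 for receptors, 0.97 for Smads and 1.11 for Id genes, and that of the ligands and antagonists became -0.07. In that setting 10 of 12 receptors, 5 of 8 Smads and all 4 Id genes were higher, against 17.7% of all genes, whose median was -0.19. Smad9 was lost at 0.55 (adjusted p = 0.142). The brightest probe was chosen anew in this setting, and Smad4 kept its call on its dimmer probe, of 45% GC. The probe of 36.7% GC that stands for Smad4 above was not tested in it. Values that fell by more than 1.5 times but kept their call were 0.72 for Id1, 0.78 for Tgfbr1, 0.83 for Bmp2, 0.97 for Smad5, 1.06 for Id2 and 1.61 for Smad7. Of the 8 pathway genes with probes of 53.3% or 55% GC, Id3 and Acvr2b were higher, Nog was lower, and Gdf7, Tgfb1, Chrd, Acvrl1 and Bmp1 were not called, with values from -0.66 to -0.09.

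**Figure D4:**
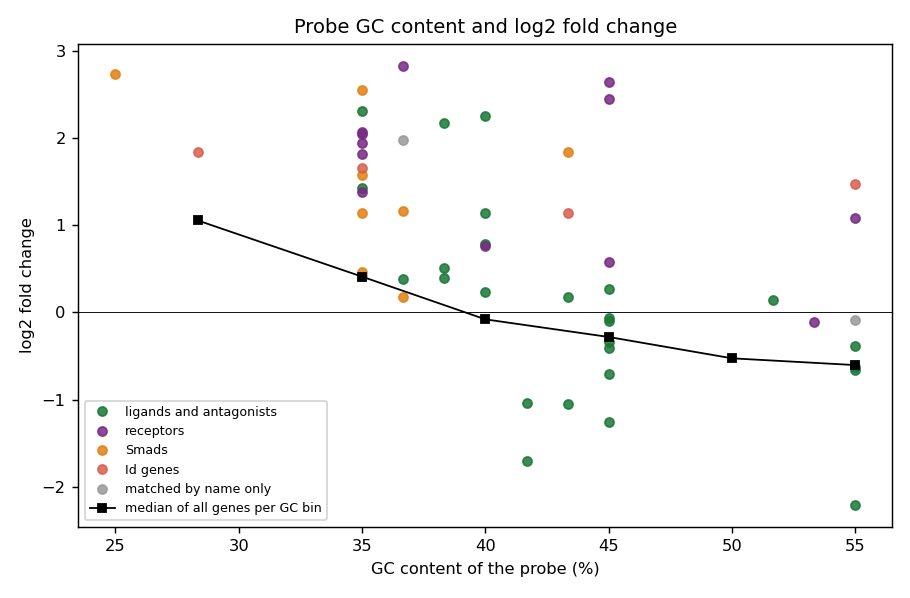
Log2 fold change of CPEB2 IgG over control IgG against the GC content (%) of the probe for the 53 pathway genes tested, colored by role, with black squares joined by a line for the median of all genes tested in each GC bin. The squares fall from 1.05 to -0.60 with rising GC, and receptors, Smads and Id genes lie mostly above them.

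Across 17 ways of processing, including each array left out in turn, no receptor, Smad or Id gene was called lower. The median of the receptors ran from 1.38 to 2.10 with 6 to 11 of 12 higher, that of the Smads from 0.97 to 1.60 with 3 to 7 of 8 higher, and that of the Id genes from 1.11 to 1.79 with 1 to 4 of 4 higher. Ligands and antagonists had medians from -0.17 to 0.26. The background moved too: the median of all genes ran from -0.22 to 0.11. Their share called higher ran from 9.37% without the filter on dim probes to 26.5% with median centring. The 11 receptors higher were seen with normexp, where 25.2% of all genes were higher. Less the median of all genes, the medians were 1.57 to 2.22 for receptors, 1.16 to 1.62 for Smads and 1.30 to 1.79 for Id genes. The fewest calls came without a filter on dim probes, where the medians of receptors, Smads and Id genes were as before and 10 of these 24 genes were higher, where 9.37% of all genes were. With the mean of a gene's probes in place of its brightest, the median fell from 1.87 to 1.45 for receptors and from 1.37 to 1.17 for Smads.

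**Figure D5:**
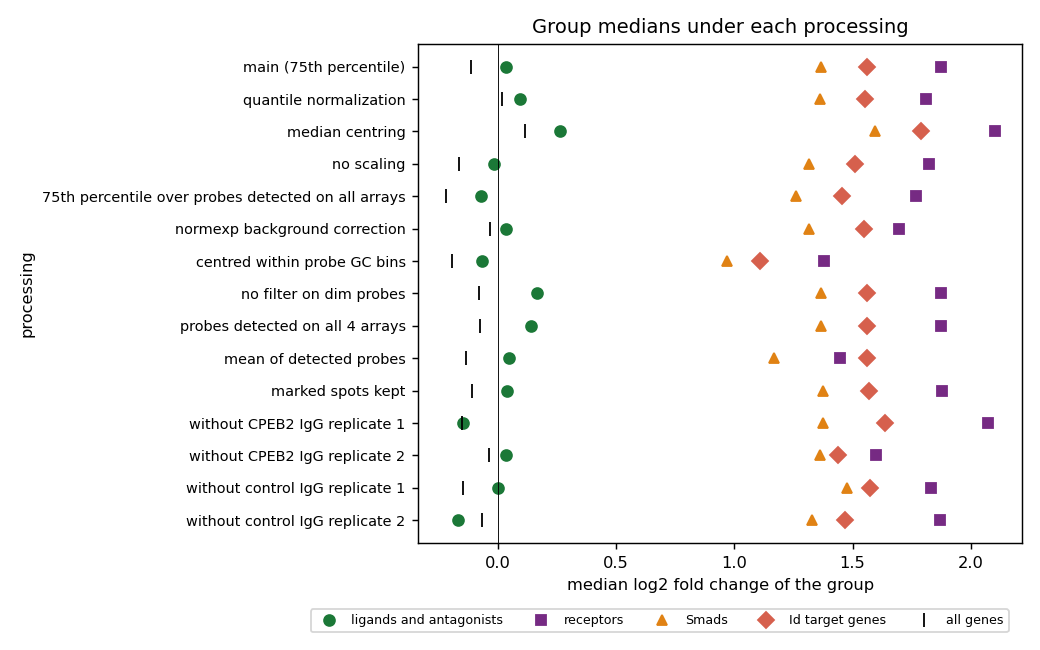
Median log2 fold change of the ligands and antagonists (26 genes), receptors (12), Smads (8) and Id genes (4) under each processing, with a vertical tick for the median of all genes tested. Receptors, Smads and Id genes stay between 0.97 and 2.10 throughout, and ligands and antagonists between -0.17 and 0.26.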

How the data were processed

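RIP-microarray data of 4 arrays were used, 2 with CPEB2 IgG and 2 with control IgG. The authors deposited the scanner output of each array (Agilent Feature Extraction 10.5.1.1), which holds the intensity of every spot after background correction by the software and before any scaling between arrays. Coordinates (mm9) and gene symbols come from the annotation in these files. All 56 symbols were found in the RefSeq table of assembly GRCm38.p6, as were the RefSeq transcripts of 74 of the 83 probes, all with the same symbol.

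Control spots were left out, as were spots flagged for being uneven or outliers of their population. Spots of a probe were averaged on the log2 scale, and the 75th percentile over the probes of an array was then subtracted. limma 3.58.1 in R 4.3.3 was fitted to the brightest probe of each gene with the experiment as a block. The methods state that lysate was divided between the antibodies, and the authors' supplement sets arrays of the same number against each other. Deviations of same-numbered arrays from their group means were weakly correlated (0.203 over 19696 genes), which by itself does not establish the pairing. Python 3.11.15 with pandas 2.3.3 was used for the rest.

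The genes, their roles and the lists were chosen with earlier results of these data known. Signals on all arrays are given for receptors, Smads and Id genes that passed the filter, and in the other roles for at most 5 called genes each way. Others that are named with values were chosen after these were seen. The lists of other cell types gave, as higher and lower of those tested, 0 and 1 of 7 for neurons, 2 and 2 of 5 for astrocytes, 0 and 1 of 4 for oligodendrocytes, 1 and 1 of 4 for microglia, 1 and 0 of 4 for endothelium, 1 and 0 of 4 for choroid plexus, and 2 and 0 of 4 for meninges and fibroblasts.

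Alternatives were quantile normalization, median centring, no scaling, a percentile over probes detected on all arrays, normexp background correction with an offset of 50, centring within 8 bins of probe GC content, other filters, the mean of the probes, marked spots kept, an intensity trend, no block and each array or experiment left out. The fits with an array left out had no block. Precision is limited by the number of arrays. Whether a probe lies in a coding or untranslated part was not examined here. One probe sequence is not reported here.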

Additional observations from a re-analysis of the deposited data

How the results depend on the processing

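The 24 pathway genes higher were 23 to 28 under every alternative with all 4 arrays and a filter on dim probes. Without that filter they were 14. Of all genes tested, 17.7% (centring within GC bins) to 26.5% (median centring) were higher with the filter and 9.37% without it. The 4 genes lower became 2 with centring within GC bins and 1 without the filter. They were 5 with no scaling, the intensity trend or detection on all 4 arrays. With the percentile over detected probes they were 6, and with normexp 4, of which 2 were the same genes. Of all genes tested, 16.8% (median centring) to 24.9% (detection on all 4 arrays) were lower with the filter and 7.6% without it. Without the replicate block 25 were higher and 4 lower. The median log2 fold change of 0.76 was 0.99 with median centring, 0.61 with normexp and 0.97 with the mean of the probes, and ran from 0.56 to 0.86 with an array or an experiment left out. Of all genes, 50.9% of the calls were higher, and 61.2% with median centring, which moved the median of all genes by 0.23, as quantile normalization did by 0.13 and the percentile over detected probes by -0.11. The 19 genes past the fold and signal thresholds were 15 to 24 under the alternatives and 17 to 19 with an experiment left out.

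Signs turned for genes that were not called. Centring within GC bins gave -0.088 for Bmp4, -0.14 for Smad1, -0.22 for Gdf15, 0.061 for Gdf1, -0.20 for Tgfb2, 0.089 for Tgfb3, -0.42 for Smad2, 0.26 for Acvrl1, -0.18 for Tgfbrap1 and 0.25 for Bmp1. Median centring gave 0.13 for Gdf1, 0.16 for Tgfb3, 0.12 for Acvrl1 and 0.14 for Bmp1. With an array or an experiment left out, Bmp10 ran from -0.21 to 0.75, Gdf15 from -0.57 to 1.33, Gdf11 from -0.18 to 0.46, Tgfb3 from -0.19 to 0.048 and Bmp1 from -0.34 to 0.16. With normexp the other probe of Tgfb2 was the brightest and its value was 1.63, which was called higher. The cause was not tested for the other changes.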
